A study of Mus musculus with 18 samples.

Results

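The acinar cells of the exorbital lacrimal gland make most of the protein of mouse tears. Among their products are secretoglobins, small paired subunits that include the androgen-binding proteins, and lipocalins, barrel-shaped carriers of small molecules such as the major urinary proteins and odorant-binding proteins. Exocrine gland-secreting peptides of the Esp family are released with tears, and some of them act as pheromones sensed by the vomeronasal organ. The members described here are the genes whose symbols begin with Scgb, Esp, Obp, Mup, Lcn, Bpif, Dcpp, Prol or Smr followed by the family's number or letter, the genes Abpb to Abpz, and Pip, Amy1 and Prp2. The rule found 70 of the 23337 genes in the count table. Of these, 29 passed the filter on low counts and were tested, 21 had no count in any library, 12 others had at most 3 counts in every library, and the remaining 8 had more counts but too few to pass. Bpifa2, Amy1, Dcpp1, Dcpp2 and Dcpp3 are marked throughout as parotid genes, because parotid tissue lies next to this gland and its transcripts can be carried over at dissection.

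The libraries were made from the exorbital lacrimal glands of male mice of 2 inbred strains, NOR/LtJ, which develops an autoimmune disease of this gland in males, and BALB/cJ, the healthy comparison strain. Each strain was sampled at 3, 8 and 16 weeks of age, with 3 libraries in each of the 6 groups and 18 in all. Each library at 3 weeks came from 1 mouse and each at 8 or 16 weeks from a pool of 2 to 3 mice, so age and pooling changed together and cannot be told apart. The titles of the diseased strain read NOD where the genotype label reads NOR/LtJ, and these libraries are called NOR here. Libraries held 6378613 to 20493076 counts with a median of 15202570, and levels are given as CPM, the counts of a gene relative to its library's total after scaling by TMM factors. The 3 counts per library that a count of 0 allows corresponded to 0.118 to 0.527 CPM, and such limits and all intervals on counts cover counting error only. The tissue was checked against 11 markers of lacrimal acinar cells: none was at 0, their summed level was 6794 to 14768 CPM, and the most abundant was Lpo, which encodes lactoperoxidase.

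The libraries stood apart in the parotid-marked genes before any comparison was made. The 5 marked genes held 5.07% of the counts in NOR replicate 2 and 4.94% in NOR replicate 3 at 3 weeks, against 0.000113% in the lowest library. Bpifa2, which encodes the parotid secretory protein, was at 0.383, 9869.6 and 1.20 CPM in BALB/c and 49.9, 40292 and 42100.1 CPM in NOR at 3 weeks. At 8 weeks its level was 1117, 299 and 33.3 CPM in BALB/c and 2316, 11344 and 1527 CPM in NOR, and at 16 weeks 5.04, 4343 and 214 and 20.9, 3255 and 2.98 CPM. BALB/c replicate 2 and NOR replicates 2 and 3 were high at 3 weeks, all 3 NOR libraries were above all BALB/c libraries at 8 weeks, and replicate 2 of both strains was high at 16 weeks. Amy1, which encodes salivary amylase, ran from 0.506 to 13653 CPM and was high in the same libraries. Smr3a, a proline-rich salivary gene that the rule does not mark, ran from 0.190 to 13943 CPM with the same libraries on top. Of 10 parotid markers 2 were called higher in NOR at 3 weeks, 2 at 8 weeks and 1 at 16 weeks, and none was at 0 in all libraries. Their summed level was 6330.2, 18859.6 and 6764 CPM in BALB/c and 9033, 65737 and 67526 CPM in NOR at 3 weeks, and 11559.8, 7477 and 7524 and 14946, 26603 and 14998 CPM at 8 weeks. At 16 weeks the sum was 10287, 16911 and 10076 CPM in BALB/c and 13245, 13244 and 10746 CPM in NOR. In the libraries low in Bpifa2 this sum came mostly from 2310057J18Rik and Dnase1. Of the 18 libraries, 9 held over 0.1% of their counts in the marked genes and 7 held under 0.01%.

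**Figure D1:**
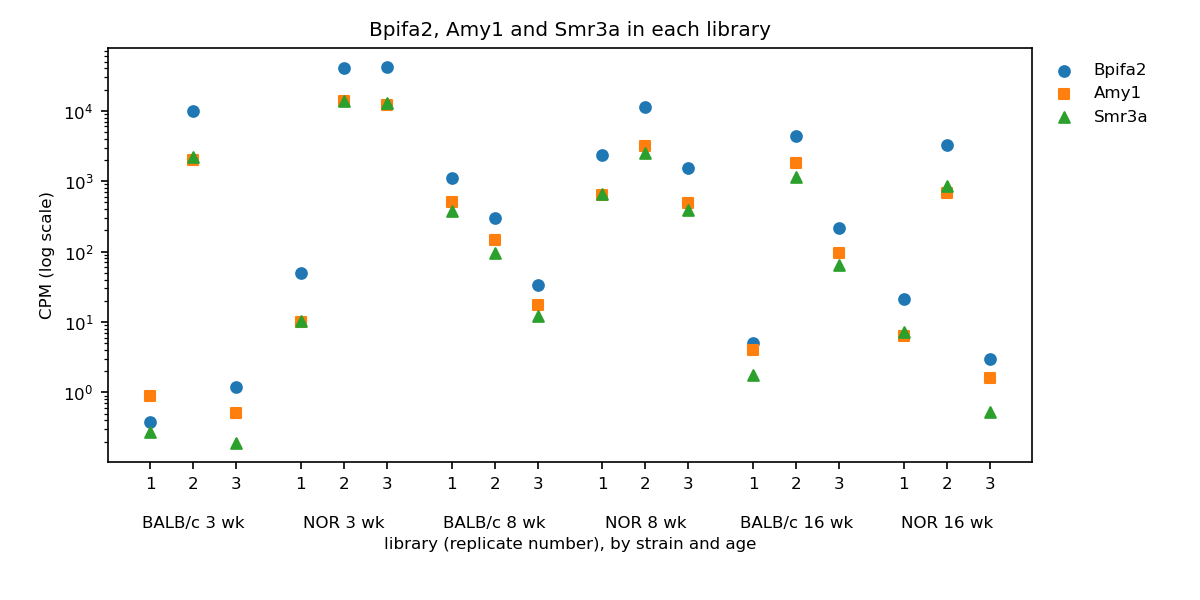
CPM of Bpifa2, Amy1 and Smr3a on a log axis in each of the 18 libraries, by strain, age and replicate number. The 3 genes were high in the same libraries, with Bpifa2 at 42100.1 CPM in NOR replicate 3 and at 0.383 CPM in BALB/c replicate 1 at 3 weeks.

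Together the members held 31.3 to 39.3% of all counts, and 7 to 10 of the 20 most abundant genes of each library were members. Most of this came from 4 secretoglobins, 1 odorant-binding protein and 1 major urinary protein. Secretoglobins held 11 to 26.7% of counts: 16 to 16.3% in BALB/c and 11 to 13.9% in NOR at 3 weeks, and 24.9 to 26.7% and 22.7 to 26% at 8 weeks. Their share at 16 weeks was 19.7 to 20.1% in BALB/c and 22.5 to 26% in NOR, with every NOR library above every BALB/c library, whereas at 3 weeks every NOR library was below. The separation at 16 weeks holds for shares of raw totals. After TMM scaling NOR replicate 2 was at 58196 CPM for Abpe and 45765 CPM for Abph, within the BALB/c range. For Abpd and Abpz it was at 26210 and 25880 CPM, below every BALB/c library of that age. Obp1a alone held 14.2 to 15.6% of counts in BALB/c at 3 weeks and 2.28 to 4.04% at 8 weeks. Major urinary proteins went the other way in BALB/c, from 1.39 to 1.63% at 3 weeks to 6.22 to 7.44% at 8 weeks. These shares are descriptions and were not tested. In all, 11 members exceeded 1000 CPM in at least 1 group and 21 exceeded 10 CPM. Prp2, a proline-rich salivary gene, had at most 2 counts in any library.

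**Figure D2:**
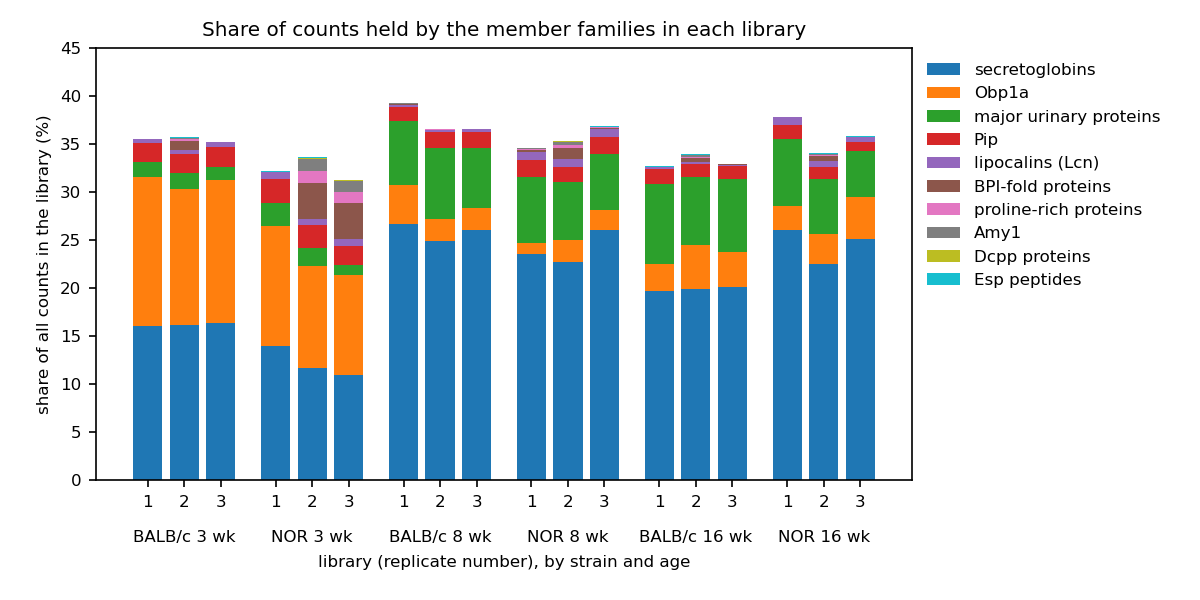
Share of all counts, in percent, held by each member family in each library, by strain, age and replicate number. Obp1a held 1.11 to 15.6% of counts and its highest shares were at 3 weeks, while major urinary proteins held 1.07 to 8.40% with their highest shares at 8 and 16 weeks.

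Levels were compared between genes as CPM per kilobase of transcript. In BALB/c at 3 weeks Obp1a, which encodes an odorant-binding lipocalin, had the highest level of any gene at 218947 ± 16344 CPM per kilobase (SD, n = 3). Among the members Abpe followed at 132635 ± 5242 and Abph at 108402 ± 3284 CPM per kilobase, 2 subunits of androgen-binding protein. Abpz was at 68207 ± 5729 and Abpd at 61726 ± 3019 CPM per kilobase, and a difference between them was not tested. Pip, which encodes the prolactin-inducible protein found in tears and saliva, was at 39132 ± 2766 CPM per kilobase, and Mup4 at 19284 ± 885. By 8 weeks in BALB/c the order was different: Abpe, at 194518 ± 25656, and Abph, at 181982 ± 14767 CPM per kilobase, led. Within each library Abph was at 0.896 to 0.993 of Abpe, and a difference between them was not tested. Obp1a was at 41721 ± 16480.0 CPM per kilobase. In NOR at 16 weeks Abpe, at 142262 ± 28669.8, and Abph, at 131892 ± 20977 CPM per kilobase, were again the most abundant members per length.

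At 3 weeks, before the age at which disease is described, the strain comparison asks whether the glands already differ. Esp24, Mup5 and Prol1 were higher in NOR, and the secretoglobins Abpb and Abpg were lower. By the fitted fold change, Mup5 was 5.97-fold and Esp24 4.54-fold higher in NOR. All 13376 genes that passed the filter entered the quasi-likelihood F-test of edgeR, and p-values were adjusted over all of them by the Benjamini-Hochberg method. A difference was called where the log2 fold change reached 1 in either direction with an adjusted p no higher than 0.05. Of the 29 members tested, 4 were called higher in NOR, beside 3.54% of all genes, and 2 were called lower, beside 1.71% of all genes. The median log2 fold change was 0.29 over the members and 0.01 over all genes. With 3 libraries against 3, the smallest exact two-sided p of a permutation test is 0.1, so each call rests on the spread that edgeR shares across genes. Strains without overlap were common: 31.3% of all tested genes at 3 weeks, 45.1% at 8 weeks and 57.3% at 16 weeks. Of the 29 members, 7, 16 and 10 had no overlap at these ages. Between neighbouring ages within a strain the share of all genes was 26.1 to 46.4%. A lack of overlap by itself is therefore no result about a member.

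Among the secretoglobins, Abpb, a subunit of androgen-binding protein, was at 211, 163 and 245 CPM in BALB/c and 49.5, 91 and 168 CPM in NOR at 3 weeks. NOR replicate 3 lay within the BALB/c range and the other 2 NOR libraries below it. The fit gave a log2 fold change of -1.03 (SE 0.266, n = 3 libraries per group, edgeR, Benjamini-Hochberg adjusted p 0.0117). The call was lost without BALB/c replicate 3 (-0.89), without NOR replicate 1 (-0.69) and without NOR replicate 2 (-0.96), and with only the groups compared (-1.01). Abpg, a related subunit on chromosome 7, was at 4.98, 2.34 and 5.19 CPM in BALB/c and 1.71, 1.24 and 1.76 CPM in NOR, with no overlap, and its log2 fold change was -1.43 (SE 0.310, edgeR, Benjamini-Hochberg adjusted p 0.00325). With the mean log2 CPM of Amy1 and Bpifa2 as a covariate, the parotid covariate, the Abpg call was lost at -0.97. The 4 abundant subunits were not called: the log2 fold change was -0.90 for Abph, -0.55 for Abpe, -0.18 for Abpz and 0.29 for Abpd. Abph was at 45057, 44263 and 46942 CPM in BALB/c and 33472, 22981 and 16398 CPM in NOR. Every NOR library was below every BALB/c library. Without NOR replicate 1 Abph was called at -1.21. The ratio of Abph to Abpe, both as CPM per kilobase, was 0.808 to 0.832 in BALB/c and 0.598 to 0.679 in NOR at this age. These ratios did not overlap at 8 weeks either, at 0.896 to 0.993 and 0.747 to 0.834. They did at 16 weeks, at 0.877 to 1.02 and 0.881 to 0.961. The ratio of Abph to the sum of Abpe, Abpd and Abpz did not overlap at any age. It was 0.406 to 0.420 in BALB/c and 0.189 to 0.298 in NOR at 3 weeks. At 8 weeks it was 0.441 to 0.456 and 0.372 to 0.397. NOR was the higher strain at 16 weeks, at 0.424 to 0.507 against 0.353 to 0.415 in BALB/c. These ratios were not tested.

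Among the lipocalins, Mup5, a major urinary protein, was at 49.8, 43.4 and 50 CPM in BALB/c and 287, 222 and 348 CPM in NOR at 3 weeks. All NOR libraries were far above all BALB/c libraries. Its log2 fold change was 2.58 (SE 0.287, n = 3 libraries per group, edgeR, Benjamini-Hochberg adjusted p 2.81e-06). Mup4, the most abundant major urinary protein gene here, was at 17251, 17387 and 15983 CPM in BALB/c and 29905, 20360.2 and 11644 CPM in NOR. The NOR libraries spread on both sides of the BALB/c libraries, and Mup4 was not called, with a log2 fold change of 0.29. Lcn11, a lipocalin of the chromosome 2 cluster, was at 4614, 4443 and 5220.0 CPM in BALB/c and 8792, 7183 and 7712 CPM in NOR. The groups did not overlap, but the log2 fold change of 0.73 was below the cutoff.

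Among the peptides and proline-rich proteins, Esp24, an exocrine gland-secreting peptide, was at 102, 107 and 104 CPM in BALB/c and 657, 441 and 324 CPM in NOR. Every NOR library was above every BALB/c library, and the BALB/c libraries were close together. For Esp24 the log2 fold change was 2.18 (SE 0.268, n = 3 libraries per group, edgeR, Benjamini-Hochberg adjusted p 9.68e-06). Prol1, which encodes a proline-rich secreted protein, was at 0.0547, 0.161 and 0 CPM in BALB/c and 0.143, 3.04 and 4.39 CPM in NOR. NOR replicates 2 and 3 were high, while NOR replicate 1 lay within the BALB/c range. BALB/c had 3 Prol1 counts in all against 59 in NOR, a ratio of 30.2 with an exact 95% counting interval of 9.86 to 151. The fitted log2 fold change of 4.85, which depends on the prior count, passed edgeR's test with a Benjamini-Hochberg adjusted p of 0.00234. It was 5.80 without BALB/c replicate 2 and 5.62 without NOR replicate 1. NOR replicates 2 and 3 were the libraries highest in parotid-marked genes. The Prol1 value was 4.52 and still called with the parotid covariate, while with only the groups compared Prol1 did not pass the filter and was not tested. Carry-over and strain cannot be told apart in it.

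Among the parotid-marked genes at 3 weeks, only Dcpp2, a gene of the demilune cell and parotid protein family, was called. Dcpp2 was at 0, 10.6 and 0 CPM in BALB/c and 0, 147 and 124 CPM in NOR. BALB/c replicate 2 and NOR replicates 2 and 3 were high, and the groups overlapped at 0. The log2 fold change was 4.86 (SE 1.39, edgeR, Benjamini-Hochberg adjusted p 0.0221). The Dcpp2 call was lost without BALB/c replicate 1 (4.17) or 3 (4.23) and without NOR replicate 2 (4.24) or 3 (4.56). The value was 13.42 without BALB/c replicate 2 and 5.48 without NOR replicate 1. Without BALB/c replicate 2 the number of members called at 3 weeks went from 6 to 12, through Dcpp1, Dcpp3, Bpifa2, Bpifb1, Amy1 and Smr3a. Each of these genes was high in the libraries rich in parotid transcripts, and with the parotid covariate Dcpp2 stayed called at a log2 fold change of 1.55. Its call was lost by DESeq2 (4.68) and with only the groups compared (4.86). How far carry-over and strain each account for these differences cannot be told apart.

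At 8 weeks, the age of early disease, the strain comparison asks how the glands of the strains differ at onset. The diseased strain also differs from BALB/c in genotype. Disease and strain therefore cannot be told apart in this comparison or in that at the later age. Lcn11 and Lcn2 were higher in NOR, by 2.88-fold in the fit for Lcn11, and Esp3, Mup5 and Smr2 were lower. Mup5 was thus on the opposite side from 3 weeks. Of the 29 members, 3 were called higher in NOR, close to the 8.93% of all genes, and 3 were called lower, beside 2.65% of all genes. The median log2 fold change was -0.14 over the members and 0.02 over all genes, with and without Smr2 placed at its bound.

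Lcn11 was at 2336, 2618 and 3319 CPM in BALB/c and 7667, 7375 and 8792 CPM in NOR at 8 weeks. Every NOR library was above every BALB/c library by a wide margin. The log2 fold change was 1.53 (SE 0.214, n = 3 libraries per group, edgeR, Benjamini-Hochberg adjusted p 2.63e-05). Lcn2, which binds bacterial iron carriers, was at 6.76, 6.01 and 6.32 CPM in BALB/c and 16.8, 20.2 and 9.29 CPM in NOR. The NOR libraries were all higher, with replicate 3 nearest to BALB/c, and the log2 fold change was 1.28 (SE 0.408, edgeR, Benjamini-Hochberg adjusted p 0.0248). The Lcn2 call was lost without BALB/c replicate 1 (1.32), 2 (1.24) or 3 (1.27) and without NOR replicate 1 (1.19) or 2 (1.02). It was also lost with the parotid covariate (1.16). Mup5 was at 141, 95.1 and 87 CPM in BALB/c and 40.8, 25.7 and 57.3 CPM in NOR. Every NOR library was below every BALB/c library, and the log2 fold change was -1.38 (SE 0.279, edgeR, Benjamini-Hochberg adjusted p 0.000897). Mup4 was at 75889, 76964 and 68556 CPM in BALB/c and 62474, 55316 and 59173 CPM in NOR, which did not overlap, but its log2 fold change of -0.32 was not called. Obp1a was not called either, with a log2 fold change of -0.82, and reached -1.01 and a call without NOR replicate 2.

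Esp3, another exocrine gland-secreting peptide, was at 279, 241 and 303 CPM in BALB/c and 126, 117 and 159 CPM in NOR at 8 weeks. The NOR libraries were all below the BALB/c libraries. The log2 fold change was -1.03 (SE 0.204, edgeR, Benjamini-Hochberg adjusted p 0.000733), and it was below the cutoff without BALB/c replicate 3 (-0.96) and without NOR replicate 2 (-0.97), and with the parotid covariate (-0.91). Smr2, a salivary androgen-regulated gene, was at 5.11, 5.73 and 0.959 CPM in BALB/c, 164 counts in all, and had no count in NOR. It was therefore at least 21.9-fold lower in NOR, against the floor of 3 counts per library. Smr2 passed the filter only through the BALB/c libraries at 8 weeks, so it had to differ, and its calls are no support for a difference. Without it 2 members were called lower at this age. Its fitted log2 fold change depends on the prior count and is not given. Prol1 was at 10.9, 16.5 and 15 CPM in BALB/c and 15.8, 10.5 and 12.3 CPM in NOR, which overlapped, with a log2 fold change of -0.14. Dcpp2 was the only parotid-marked gene called, at 1.02, 0.489 and 0 CPM in BALB/c and 12.7, 42.6 and 10.5 CPM in NOR, with a log2 fold change of 5.57 (SE 1.93, edgeR, Benjamini-Hochberg adjusted p 0.0377). The call was lost without BALB/c replicate 1 (6.59), 2 (5.63) or 3 (4.87), without NOR replicate 2 (4.64) and by DESeq2 (5.43). Other salivary genes were called at this age under alternatives: Dcpp3 with a replicate block, Dcpp1 and Dcpp3 with no filter and with the parotid covariate, and Dcpp1, Dcpp3, Bpifa2 and Smr3a with only the groups compared.

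At 16 weeks, when disease is more advanced, Esp24, Lcn11 and Lcn3 were higher in NOR, and Esp3, Mup5, Mup3 and Scgb2b1-ps were lower. In the fit Esp3 was 4.36-fold lower in NOR, and Lcn11 2.96-fold higher. Of the 29 members, 3 were called higher in NOR, or 10.3%, beside 14.1% of all genes, and 4 were called lower, beside 5.22%. With the parotid covariate 6 were called higher, adding the parotid-marked genes Dcpp1, Dcpp2 and Dcpp3. The median log2 fold change was -0.39 over the members and -0.01 over all genes. The abundant secretoglobins did not pass at this age, with log2 fold changes of 0.31 for Abph, 0.36 for Abpe, -0.25 for Abpd and -0.40 for Abpz. Scgb2b1-ps, a secretoglobin pseudogene, was at 8.98, 5.25 and 8.65 CPM in BALB/c and 4.0, 4.35 and 1.70 CPM in NOR, with no overlap. Its log2 fold change was -1.12 (SE 0.284, edgeR, Benjamini-Hochberg adjusted p 0.00284), and the call was lost without BALB/c replicate 1 (-0.998) or 3 (-0.997) and without NOR replicate 3 (-0.84).

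Lcn11 was at 2018, 1655 and 1548 CPM in BALB/c and 7169.6, 4336 and 3929.9 CPM in NOR at 16 weeks. All NOR libraries were above all BALB/c libraries, with NOR replicate 1 highest. Its log2 fold change was 1.56 (SE 0.214, n = 3 libraries per group, edgeR, Benjamini-Hochberg adjusted p 7.35e-06), close to the value at 8 weeks. Lcn3, its neighbour on chromosome 2 and a lipocalin first described in the vomeronasal organ, was at 0.238, 0 and 0.0961 CPM in BALB/c and 1.31, 0.627 and 0.957 CPM in NOR. The groups did not overlap, and the log2 fold change was 2.82 (SE 0.787, edgeR, Benjamini-Hochberg adjusted p 0.00575), or 3.82 without BALB/c replicate 1. Only NOR libraries, 7 in all and 4 of them at 3 or 8 weeks, had enough Lcn3 counts for the filter. Its call is therefore no support for a strain difference. Lcn3 was not tested with a mean of at least 1 CPM, where 2 members were called higher in NOR. Lcn2 was at 8.93, 8.37 and 34.3 CPM in BALB/c and 19.3, 21.8 and 23.1 CPM in NOR. BALB/c replicate 3 was above every NOR library and the other 2 were below them all, so the groups overlapped. The Lcn2 difference of 0.29 was not called, and without BALB/c replicate 3 it was called at 1.33. Mup5 was at 138, 84 and 109 CPM in BALB/c and 62.5, 32.1 and 32.8 CPM in NOR, again with every NOR library lower, and its log2 fold change was -1.38 (SE 0.279, edgeR, Benjamini-Hochberg adjusted p 0.000433). Mup3 was at 2.23, 3.43 and 1.59 CPM in BALB/c and 1.79, 0.941 and 0.213 CPM in NOR, which overlapped, with a log2 fold change of -1.18 (SE 0.437, edgeR, Benjamini-Hochberg adjusted p 0.0306). The Mup3 call was lost without BALB/c replicate 1 (-1.23) or 2 (-0.88) and without NOR replicate 2 (-1.04) or 3 (-0.81), and with only the groups compared (-1.16). Mup4 was not called, with a log2 fold change of -0.62.

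Esp3 was at 291, 271 and 232 CPM in BALB/c and 83.9, 43.9 and 54.6 CPM in NOR at 16 weeks. The NOR libraries lay far below the BALB/c libraries. This was a log2 fold change of -2.12 (SE 0.211, n = 3 libraries per group, edgeR, Benjamini-Hochberg adjusted p 1.67e-07). Esp24 was at 202, 138 and 166 CPM in BALB/c and 558, 315 and 445 CPM in NOR. Every NOR library was above every BALB/c library, and the log2 fold change was 1.38 (SE 0.261, edgeR, Benjamini-Hochberg adjusted p 0.000229). The third Esp gene tested, Esp38, was at 52.2 to 123 CPM over all libraries and was called at no age. Thus Esp3 was lower and Esp24 higher in NOR at the same age, although both lie in one cluster on chromosome 17. The 3 strain comparisons share no library, and Mup5 alone was called at all 3 ages. In all, 13 members, Smr2 and Lcn3 among them, were called between the strains at 1 or more ages, 44.8% of those tested beside 22.6% of all genes, and 16 at none, among them Mup4, Obp1a, Pip, Abph, Abpe, Abpd and Abpz.

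**Figure D3:**
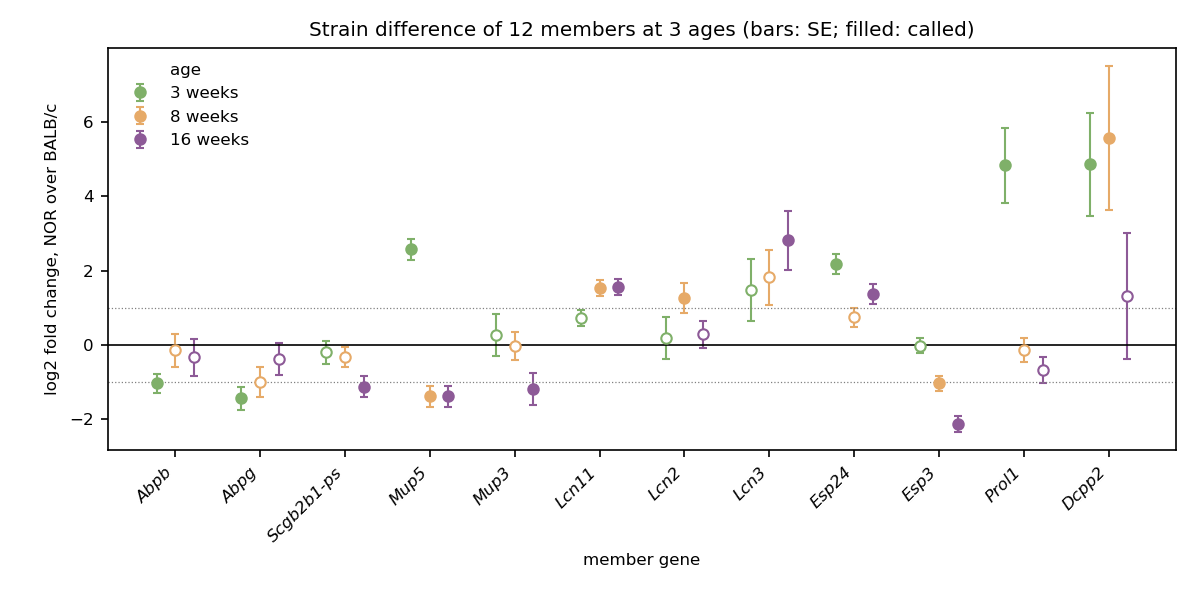
Log2 fold change of NOR over BALB/c at 3, 8 and 16 weeks for 12 of the 13 members called at 1 or more ages, with bars for the SE and filled points where called. Mup5 was at 2.58, -1.38 and -1.38, and Esp3 at -0.02, -1.03 and -2.12. Smr2 is left out, since its fitted value depends on the prior count.

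The comparison of 8 with 3 weeks follows the maturing gland in each strain. Mup4, Mup3 and Prol1 rose in both strains, and Obp1a, Abpb and Abpg fell in both. Abpb fell the most, by 57.6-fold in the fit in BALB/c and 31-fold in NOR. In BALB/c 8 of the 29 members were called higher at 8 weeks, beside 4.37% of all genes, and 3 were called lower, beside 2.58%. In NOR 5 were called higher, beside 8.88% of all genes, and 4 lower, beside 3.27%. The median log2 fold change over the members was 0.57 in BALB/c and 0.01 in NOR, beside 0.00 and 0.03 over all genes, and placing Smr2 at its bound in BALB/c left the median as it was. Without NOR replicate 1 at 3 weeks the number called in NOR went from 9 to 15, adding Dcpp2, Dcpp3, Bpifb1, Mup13, Abpe and Scgb2b1-ps.

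Obp1a was at 173397, 151469 and 172362 CPM in BALB/c at 3 weeks and 45962, 23644 and 25142 CPM at 8 weeks. In NOR it was at 153059, 115701 and 116484 CPM at 3 weeks and 10077, 21552 and 21867 CPM at 8 weeks. In both strains all 8-week libraries were far below all 3-week libraries. The log2 fold change was -2.39 (SE 0.319, edgeR, Benjamini-Hochberg adjusted p 1.41e-05) in BALB/c and -2.85 (SE 0.324, edgeR, Benjamini-Hochberg adjusted p 2.83e-06) in NOR. Abpb, at 3.77, 3.29 and 3.67 CPM in BALB/c and 3.17, 3.16 and 3.41 CPM in NOR at 8 weeks, fell by the log2 values -5.85 (SE 0.355, edgeR, Benjamini-Hochberg adjusted p 6.19e-10) and -4.95 (SE 0.353, edgeR, Benjamini-Hochberg adjusted p 9.53e-09). Abpg was at 0.629, 0.979 and 0.903 CPM in BALB/c and 0.528, 0.310 and 0.411 CPM in NOR at 8 weeks, below every 3-week library of its strain. Its log2 fold change was -2.31 (SE 0.316, edgeR, Benjamini-Hochberg adjusted p 1.95e-05) in BALB/c and -1.88 (SE 0.391, edgeR, Benjamini-Hochberg adjusted p 0.00106) in NOR. Abph was called higher at 8 weeks only in NOR, with a log2 fold change of 1.19 (SE 0.227, edgeR, Benjamini-Hochberg adjusted p 0.000470), and the value was 0.97 without NOR replicate 3 at 3 weeks. In BALB/c the log2 fold change of Abph was 0.75, and the strains were not shown to differ in it.

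Mup4 rose from 17251, 17387 and 15983 CPM to 75889, 76964 and 68556 CPM in BALB/c. In NOR it rose from 29905, 20360.2 and 11644 CPM to 62474, 55316 and 59173 CPM. No 8-week library overlapped a 3-week library of its strain, and the log2 fold change was 2.13 (SE 0.278, edgeR, Benjamini-Hochberg adjusted p 1.14e-05) in BALB/c and 1.52 (SE 0.273, edgeR, Benjamini-Hochberg adjusted p 0.000290) in NOR. Mup3 rose by 1.98 in BALB/c and 1.68 in NOR on the log2 scale, and the NOR call was lost without NOR replicate 2 at 8 weeks (1.27). Mup6 and Mup13 were called higher in BALB/c, with log2 fold changes of 1.28 and 2.48, and were not called in NOR, but the strains were not shown to differ in them. Mup13 had 8 counts in BALB/c at 3 weeks against 44 at 8 weeks, a ratio of 5.71 with an exact 95% counting interval of 2.66 to 14. Mup5 moved in opposite directions: its log2 fold change was 1.17 (SE 0.278, edgeR, Benjamini-Hochberg adjusted p 0.00363) in BALB/c and -2.79 (SE 0.289, edgeR, Benjamini-Hochberg adjusted p 9.43e-07) in NOR. The BALB/c value was 0.93 without BALB/c replicate 1 at 8 weeks. Lcn2 rose in NOR, with a log2 fold change of 2.10 (SE 0.475, edgeR, Benjamini-Hochberg adjusted p 0.00208), from 3.43, 3.52 and 4.04 CPM at 3 weeks. In BALB/c it was at 2.46, 4.28 and 2.91 CPM at 3 weeks, and the log2 fold change of 1.01 was not called, but the strains were not shown to differ in this change.

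Esp24 rose in BALB/c from 102, 107 and 104 to 202, 299.97 and 284 CPM, with a log2 fold change of 1.33 (SE 0.262, edgeR, Benjamini-Hochberg adjusted p 0.000799). In NOR it was at 344, 355 and 615 CPM at 8 weeks, overlapping its 3-week libraries, and its log2 fold change of -0.11 was not called. Prol1 had 3 counts in BALB/c at 3 weeks and 640 at 8 weeks. The ratio was 222 with an exact 95% counting interval of 75.5 to 1077, and the fitted log2 fold change was 7.60, or 8.57 without BALB/c replicate 2 at 3 weeks. In NOR the Prol1 log2 fold change was 2.62 (SE 0.434, edgeR, Benjamini-Hochberg adjusted p 0.000132), and 1.85 without NOR replicate 1 at 3 weeks. Smr2 had no count in BALB/c at 3 weeks and was at least 19.8-fold higher at 8 weeks, the group through which it passed the filter, so 7 members were called higher in BALB/c without it. It had no count in NOR at either age. The comparisons in the 2 strains share no library, but each shares its 8-week libraries with the later comparison of 16 with 8 weeks.

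From 8 to 16 weeks few members changed. In NOR Esp3 and Mup3 fell, and in BALB/c only Smr2 was called, which had passed the filter through its 8-week libraries alone. Of the 29 members 0 were called higher in BALB/c by edgeR, beside 0.426% of all genes, with 1 at an unadjusted p under 0.05 and 0 called by DESeq2. In BALB/c 1 was called lower, beside 0.0150% of all genes, and DESeq2 called 0 lower, with no adjusted p for Smr2. In NOR 0 were called higher by edgeR, beside 8.88% of all genes, with 0 at an unadjusted p under 0.05 and 0 called by DESeq2. In NOR 2 were called lower, beside 0.778%. The median log2 fold change over the members was -0.16 in BALB/c and -0.36 in NOR, beside 0.03 and -0.01 over all genes. Smr2 was at 0.285, 0 and 0.0480 CPM in BALB/c at 16 weeks, below all 3 libraries at 8 weeks, and the log2 fold change was -4.86. The call was lost without BALB/c replicate 3 at 16 weeks, where the log2 fold change was still -4.46 (edgeR, Benjamini-Hochberg adjusted p 0.0551), which left 0 members called. Without replicate 1 or 2 at 16 weeks 2 were called, since Lcn2 was then called higher at 1.78 or 1.76, and Smr2 moved to -6.69 without replicate 1.

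Esp3 in NOR fell by the log2 value -1.14 (SE 0.206, edgeR, Benjamini-Hochberg adjusted p 0.000422) from 8 to 16 weeks, and its 16-week libraries were all below its 8-week libraries. Without NOR replicate 2 at 16 weeks its call was lost at -0.91. Mup3 in NOR was at 2.64, 4.40 and 1.76 CPM at 8 weeks and 1.79, 0.941 and 0.213 CPM at 16 weeks, and the groups overlapped by a narrow margin. Its log2 fold change was -1.49 (SE 0.431, edgeR, Benjamini-Hochberg adjusted p 0.0116), and the call was lost without NOR replicate 2 at 8 weeks (-1.04) or at 16 weeks (-1.35). In place of 2 members, only Esp3 was called in NOR without the former library, and only Scgb2b1-ps, lower at 16 weeks (-1.16), without the latter. No abundant member was called: the log2 fold change in NOR was -0.31 for Mup4, -0.01 for Abph, -0.63 for Lcn11 and -0.70 for Pip. Pip was at 16219, 14738 and 18148 CPM in NOR at 8 weeks and 13706, 8618 and 7919.6 CPM at 16 weeks, which did not overlap, but the difference was below the cutoff. Fewer cells of a type and less RNA per cell cannot be told apart in these libraries.

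**Figure D4:**
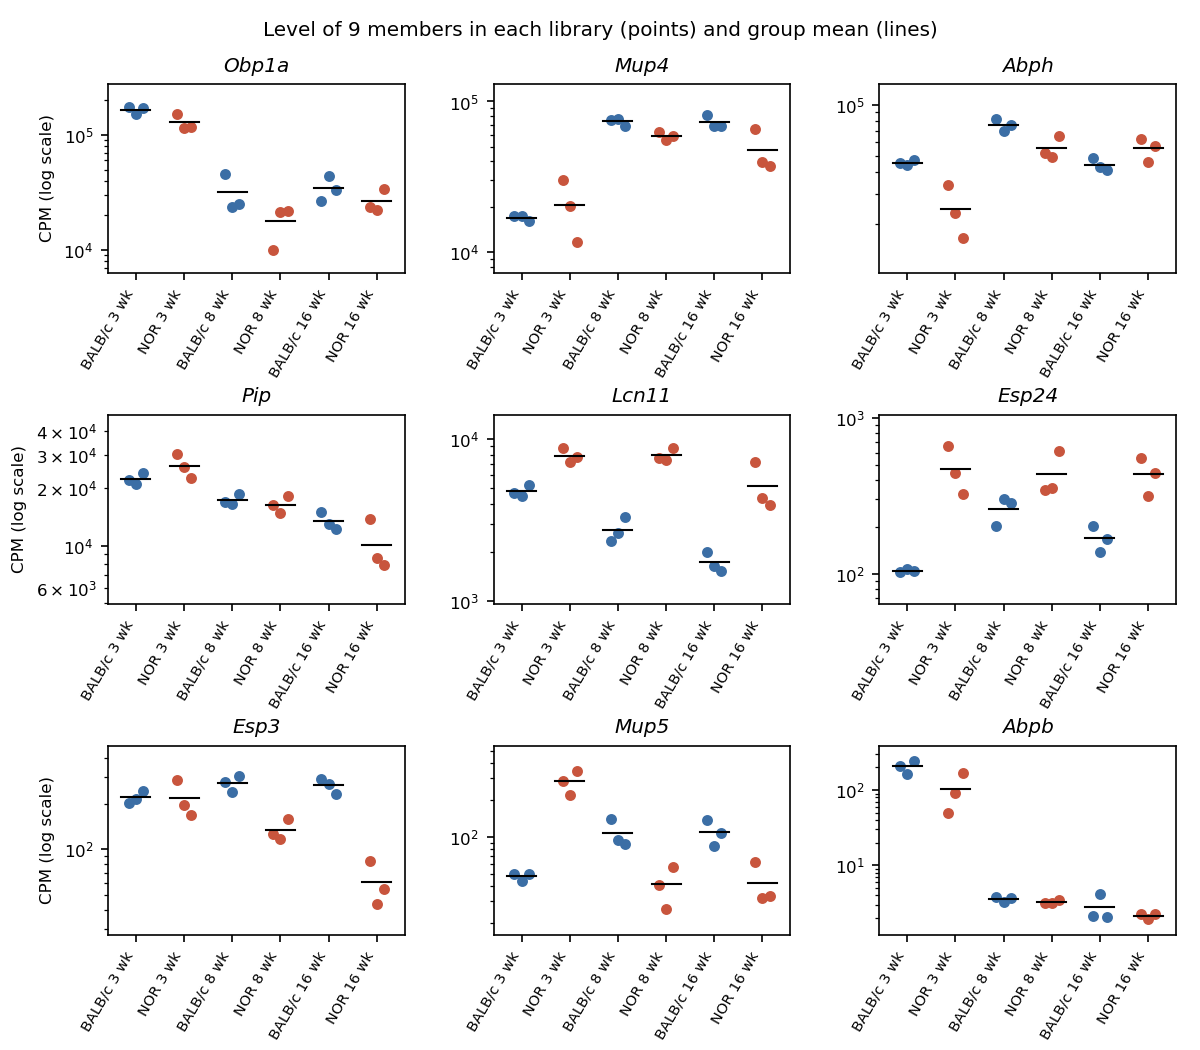
CPM of 9 members on log axes in each library, with the group means as lines. Obp1a and Abpb were highest at 3 weeks, Mup4 was at 11644 to 29905 CPM at 3 weeks and at 37082 to 81597 CPM later, and Esp3 in NOR was at 43.9 to 83.9 CPM at 16 weeks.

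Whether the strain difference itself changed with age was tested as an interaction. Between 3 and 8 weeks it moved down in Esp24, Mup5 and Prol1, and between 8 and 16 weeks in Esp3. From 3 to 8 weeks 3 members were called lower, beside 0.927% of all genes, and 0 higher by edgeR, beside 1.29%, with 1 at an unadjusted p under 0.05 and 0 called by DESeq2. Esp3, with a change of -1.01 in the main fit, was called as well, giving 4 members, by DESeq2 and in edgeR with DESeq2's size factors, TMM factors computed without the members, no filter, a mean of at least 1 CPM, only the groups compared or the parotid covariate. The median was -0.31 over the members and 0.01 over all genes. Mup5 had the clearest change, -3.96 (SE 0.399, edgeR, Benjamini-Hochberg adjusted p 7.60e-06), kept with every library left out in turn. Prol1 changed by -4.98 (SE 1.08, edgeR, Benjamini-Hochberg adjusted p 0.0129). Its call was lost without replicate 1 of BALB/c at 3 weeks (-4.86) and without replicate 2 of NOR at 3 weeks (-4.53), and 1 member was then called in place of 3. It was -5.94 without replicate 2 of BALB/c at 3 weeks and -5.75 without replicate 1 of NOR at 3 weeks. Esp24 changed by -1.44 (SE 0.365, edgeR, Benjamini-Hochberg adjusted p 0.0332). The Esp24 call was lost without replicate 1 (-1.43), 2 (-1.45) or 3 (-1.44) of BALB/c at 3 weeks and without replicate 2 (-1.33) or 3 (-1.38) at 8 weeks. It was also lost without replicate 1 (-1.13) or 2 (-1.49) of NOR at 3 weeks and 1 (-1.31) or 2 (-1.32) at 8 weeks. Without replicate 3 of NOR at 3 weeks 5 members were called, since Esp3 (-1.16) and Abpb (1.42) were added.

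From 8 to 16 weeks 1 member was called lower, beside 0.807% of all genes, and 0 higher by edgeR, beside 2.04%, with 1 at an unadjusted p under 0.05 and 0 called by DESeq2. The median was -0.26 over the members and -0.04 over all genes. Esp3 changed by -1.09 (SE 0.287, edgeR, Benjamini-Hochberg adjusted p 0.0273). Its call was lost, leaving 0 members, without replicate 1 (-1.11) or 2 (-1.01) of BALB/c at 8 weeks and 1 (-1.02) or 2 (-1.08) at 16 weeks. It was also lost without replicate 3 (-0.95) of NOR at 8 weeks and 2 (-0.85) or 3 (-0.97) at 16 weeks. For Lcn11 the strain differences at 8 and 16 weeks were 1.53 and 1.56 and their change was 0.04. The interactions share groups with the strain comparisons and are no separate support for them.

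Members of a family lie close together in the genome and share sequence. The androgen-binding protein genes and Scgb2b1-ps that were tested lie between 31290519 and 34013942 on chromosome 7 of mm10, the tested Mup genes between 59956806 and 62087312 on chromosome 4, and Esp24 at chr17:39036695-39040227 and Esp3 at chr17:40632075-40637060. Lcn3 at chr2:25765569-25768099 and Lcn11 at chr2:25777017-25780279 are neighbours. Because reads that map to several places were not counted, genes with close copies can be undercounted. Of the 11 Mup members without a count, 78.1 to 100.0% of 50-base transcript windows also occur in another transcript, with a median of 92.6%. The same share was 12.4% for Mup4, 17.1% for Mup5, 92.4% for Mup13 and 58.0% for Abpd. A level of 0 in such a gene does not show that it is silent.

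Among the androgen-binding protein genes Abpg fell with age and Abph rose in NOR, so their promoters and those of the other abundant subunits are shown. RefSeq, build GRCm38.p6, gave a promoter for 59 of the 70 members and 25 of the 29 tested. TATAAA, the TATA box, was searched on both strands from 250 bases before to 50 after the start and occurred in 13.6% of 32851 promoters and in 10 of the 25. TTCNNNGAA, the STAT site, occurred in 8.3% of all and in 3 of the 25. The last 120 bases before the start of Abph (chr7:31291817-31291936, minus strand), Abpe (chr7:31302649-31302768, plus), Abpd (chr7:33366320-33366439, minus), Abpz (chr7:33739296-33739415, minus) and Abpg (chr7:33944986-33945105, minus) follow 5′ to 3′, with capitals for TATAAA or its reverse complement TTTATA.
Abph: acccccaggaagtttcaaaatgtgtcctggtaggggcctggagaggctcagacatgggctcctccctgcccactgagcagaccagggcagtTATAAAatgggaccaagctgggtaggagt
Abpe: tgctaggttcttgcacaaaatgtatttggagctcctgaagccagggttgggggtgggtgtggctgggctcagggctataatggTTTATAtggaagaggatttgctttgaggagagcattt
Abpd: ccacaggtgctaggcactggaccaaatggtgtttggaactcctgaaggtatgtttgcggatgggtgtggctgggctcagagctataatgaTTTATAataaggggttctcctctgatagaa
Abpz: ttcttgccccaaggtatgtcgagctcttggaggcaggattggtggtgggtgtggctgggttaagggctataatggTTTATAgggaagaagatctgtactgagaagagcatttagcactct
Abpg: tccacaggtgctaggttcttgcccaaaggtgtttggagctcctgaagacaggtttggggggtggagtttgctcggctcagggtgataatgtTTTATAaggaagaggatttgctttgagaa
Over the whole promoter Abpe was 81.8% identical to Abpz and 78.9% to Abpg, while Abph was 47.5 to 50.6% identical to the others. A match of letters describes the sequence and was not tested for binding.

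Other secretory genes were counted from lists of genes outside the members. The values given for them are log2 fold changes of NOR over BALB/c. Over all genes 3.54, 8.93 and 14.1% were called higher in NOR at the 3 ages, and 1.71, 2.65 and 5.22% lower. Counts near these shares are no result about a list. Of 12 lipocalin-fold genes tested, 4 were higher and 0 lower in NOR at 3 weeks by edgeR, with 0 lower at an unadjusted p under 0.05 and 0 by DESeq2, 2 and 2 at 8 weeks, and 3 and 2 at 16 weeks. Fabp5, a fatty acid carrier, had log2 fold changes of 1.89, 1.66 and 2.64 at the 3 ages, and Apod 1.29 at 16 weeks. For Rbp7, a retinol carrier, the log2 value was -1.94 at 8 weeks and -1.68 at 16 weeks. Ptgds was lower in NOR by a count ratio of 11.2 (exact 95% counting interval 3.49 to 57.4) at 8 weeks and 10.2 (4.14 to 32.7) at 16 weeks, and its log2 fold change at 8 weeks was -2.57 without BALB/c replicate 2 and -4.21 without NOR replicate 2. Of 22 other proteins of tears and saliva, 2 were higher and 1 lower at 3 weeks, 7 and 1 at 8 weeks, and 6 and 4 at 16 weeks. At 8 weeks the log2 value was 3.99 for Dnase1 and -1.51 for Car6, a secreted carbonic anhydrase, and at 16 weeks 3.06 and -2.09. That of Serpina1b was 2.07 at 8 weeks and 5.22 at 16 weeks, or 5.83 without BALB/c replicate 3. Ptgds passed the filter only through BALB/c libraries, and Serpina1b and Mucl1 only through NOR libraries. Their calls are therefore no support for a strain difference. Mucl1 had 5 counts in BALB/c and 10033 in NOR at 3 weeks, a ratio of 3086 (1322 to 9506), and its fitted log2 value was 11.51, or 12.30 without BALB/c replicate 2. It was higher in NOR by a count ratio of 38.3 (12.8 to 188) at 8 weeks and 9.58 (3.80 to 31) at 16 weeks, and the fitted value was 8.32 without BALB/c replicate 1 or 4.43 without 3 at 8 weeks and 3.77 without replicate 3 at 16 weeks.

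For genes of the secretory machinery and its control, values are again log2 fold changes of NOR over BALB/c. The shares of all genes are again 3.54, 8.93 and 14.1% higher at 3, 8 and 16 weeks, and 1.71, 2.65 and 5.22% lower. Most counts here are near or below them and are no result about a list. Of 27 machinery genes tested, edgeR called 0 in either direction at 3 weeks, with 4 higher and 8 lower at an unadjusted p under 0.05 and 0 by DESeq2. At 8 weeks 1 was lower, the potassium channel Kcnn4 (-1.76 on the log2 scale), and 0 higher, with 3 at an unadjusted p under 0.05 and 0 by DESeq2. At 16 weeks 2 were higher and 2 lower: Itpr2 had a log2 fold change of 1.26, Rab26 at -1.70 and Rab27b at -1.08, or -0.89 without NOR replicate 2. Of 20 transcription factors of secretory cells 2 were higher at 3 weeks, Esrrg (1.07, or 0.96 without NOR replicate 2) and Sox10 (1.14, or 0.96 and 0.92 without NOR replicates 2 and 3 and 0.81, not called, with the parotid covariate). At 8 weeks 1 was lower, Barx2 (-1.09), and at 16 weeks 1 was higher and 1 lower, the latter Elf5 (-1.39). Of 15 genes of steroid, prolactin and growth hormone signalling edgeR called 0 at 3 weeks, with 4 higher and 2 lower at an unadjusted p under 0.05 and 0 by DESeq2. At 8 weeks 1 was higher, Socs2 (1.19, or 0.92 without NOR replicate 2). Among those called at 16 weeks, the log2 fold change of Esr2 was -1.89, and that of Jak2 was 1.05, or 0.98 without BALB/c replicate 1 and 0.87 without NOR replicate 2.

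Markers of other cells moved beside these differences. Their counts stand beside 3.54, 8.93 and 14.1% of all genes called higher in NOR at 3, 8 and 16 weeks, and 1.71, 2.65 and 5.22% called lower. All 7 T cell markers were higher in NOR at 8 and 16 weeks. None would have passed the filter without the NOR libraries, so these calls are no support for a difference. For these markers edgeR called 0 at 3 weeks, with 0 at an unadjusted p under 0.05 and 0 by DESeq2. At 3 weeks the summed T cell markers were at 0.383, 0.484 and 0.380 CPM in BALB/c and 1.000, 0.475 and 0.879 CPM in NOR. The summed T cell markers, of which Cd4 was the most abundant, were at 1.10, 0.769 and 0.677 CPM in BALB/c and 30.2, 11.3 and 13.9 CPM in NOR at 8 weeks, and at 1.09, 1.29 and 2.07 and 63.2, 156 and 103 CPM at 16 weeks. Summed acinar markers were at 12868, 12435 and 13076 CPM in BALB/c and 14768, 13421 and 14517 CPM in NOR at 3 weeks, and 12027, 11481 and 12789 and 9569, 9559 and 10845 CPM at 8 weeks. They were at 11764, 11204 and 10928 CPM in BALB/c and 9563, 6794 and 7966 CPM in NOR at 16 weeks. Of the 11 acinar markers 1 was called higher in NOR at 3 weeks, 1 lower at 8 weeks and 2 lower at 16 weeks, with Lpo the most abundant. In that sum every NOR library was above every BALB/c library at 3 weeks and below at 8 and 16 weeks. Harderian gland markers, of which 2 could be tested and Acsbg1 was the most abundant, had 1 lower in NOR at 3 weeks and 2 at 8 and at 16 weeks, while Elovl3 and Hsd17b13 reached at most 0.0547 and 0.0690 CPM in any library. Their sum was 4.93, 4.20 and 3.04 CPM in BALB/c and 1.14, 2.19 and 1.23 CPM in NOR at 3 weeks, 28.4, 56.8 and 25.1 and 2.58, 2.29 and 1.35 CPM at 8 weeks, and 55.5, 48.5 and 59.8 and 5.59, 8.04 and 8.19 CPM at 16 weeks. Of 5 macrophage markers 0 were called by edgeR at 3 weeks, with 4 higher and 0 lower at an unadjusted p under 0.05 and 0 by DESeq2, and 3 and 4 were higher in NOR at 8 and 16 weeks. Their sum, with C1qb the most abundant, was 34.5, 39.9 and 22.6 and 45.9, 48.2 and 48 CPM at 3 weeks, 70.8, 56.4 and 80.9 and 204, 153 and 137 CPM at 8 weeks, and 77.7, 74.6 and 95.5 and 215, 326 and 251 CPM at 16 weeks. Of 7 adipocyte markers 3, 1 and 2 were higher in NOR at the 3 ages, with Fabp4 the most abundant and a sum of 26.6, 83 and 11.6 CPM in BALB/c and 61.9, 114 and 85.1 CPM in NOR at 3 weeks. The adipocyte sum was 56.7, 26 and 27.6 and 52.6, 25.7 and 42.1 CPM at 8 weeks and 25.1, 25.2 and 34.6 and 59, 67.8 and 39 CPM at 16 weeks. Of 8 skeletal muscle markers 4 were lower in NOR at 16 weeks, where their sum, with Myh4 the most abundant, was 31.3, 123 and 189.9 CPM in BALB/c and 20.8, 13.2 and 3.93 CPM in NOR. The muscle sum was 1.20, 161 and 1.77 and 13.6, 56.1 and 14.9 CPM at 3 weeks and 34.8, 126 and 2.71 and 113, 115 and 9.34 CPM at 8 weeks. No marker of these lists was at 0 in all libraries. Of 11 submandibular and sublingual markers 4 were tested, and 1 was called at each age: the member Prol1 higher at 3 weeks, the member Smr2 lower at 8 weeks and Egf lower at 16 weeks. Smgc, Muc19 and Ren1 of this list were at 0 in all libraries. Its sum, with the member Smr3a the most abundant, was 75.9, 2289 and 78.1 CPM in BALB/c and 90.6, 14021 and 13149 CPM in NOR at 3 weeks, 517, 243 and 157 and 747, 2592 and 495 CPM at 8 weeks, and 152, 1309 and 189 and 83.6, 912 and 65.1 CPM at 16 weeks. Of 3 plasma cell markers in the table edgeR called 0 at 3 weeks, with 0 higher and 0 lower at an unadjusted p under 0.05 and 0 by DESeq2, and 1 was higher in NOR at 8 and at 16 weeks. Their sum, with Derl3 the most abundant, was 238, 206 and 229 CPM in BALB/c and 260.5, 241 and 277 CPM in NOR at 3 weeks. It was 219, 222 and 218 and 199, 217 and 228 CPM at 8 weeks. At 16 weeks it was 204, 226 and 185 and 168, 109.8 and 149.8 CPM. Derl3 held most of this sum in every library. Tnfrsf17, the marker called, went the other way at 16 weeks, with 4, 1 and 0 counts in BALB/c and 16, 24 and 12 in NOR. It passed the filter only through NOR libraries, so its calls are no support for a difference. The sum is therefore not read as a level of plasma cells. Of 8 duct and myoepithelial markers tested edgeR called 0 at 3 weeks, with 3 higher and 1 lower at an unadjusted p under 0.05 and 0 by DESeq2. It called 0 at 8 weeks, with 4 higher and 0 lower at an unadjusted p under 0.05 and 0 by DESeq2, and 0 at 16 weeks, with 3 higher and 2 lower at an unadjusted p under 0.05 and 0 by DESeq2. The sum, with Myh11 the most abundant, was 104, 126 and 115 CPM in BALB/c and 121, 148 and 125 CPM in NOR at 3 weeks, 148, 154 and 158 and 237, 232 and 201 CPM at 8 weeks, and 158, 173 and 178 and 188, 209.9 and 213 CPM at 16 weeks. The part of all these cell markers in the results on the members was not tested.

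Sense and antisense reads cannot be told apart, since a stranded library was counted without regard to strand. Values of genes with close copies, above all Mup13, Abpd and the Dcpp genes, are uncertain.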

How the data were processed

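Libraries were made with the Illumina TruSeq stranded mRNA kit and read as single 50-base reads. According to the labels and the file header, the authors used bcl2fastq, FastQC, HISAT2 with mm10 and featureCounts 1.6.2, and deposited raw counts per gene. Depth was 6378613 to 20493076 counts per library. The counts were analysed with R 4.3.3 and edgeR 4.0.16 (limma 3.58.1): filterByExpr with a minimum count of 10 and a minimum total of 15, TMM factors, 1 mean for each of the 6 groups and a quasi-likelihood F-test, with Benjamini-Hochberg adjustment over 13376 genes. The strains were compared at each age, neighbouring ages in either strain, and an interaction tested whether the strain difference changed. The script was tested on simulated data. Alternatives were DESeq2 1.42.0, edgeR with DESeq2's scaling, TMM computed on non-members, no filter, a mean of at least 1 CPM, only the groups compared, a replicate block, a parotid covariate, no fold-change cutoff, glmTreat and each library left out in turn. Promoters were searched with Python 3.11.15 and figures drawn with matplotlib 3.10.9.

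Named with values were members called between the strains with at least 10 CPM in a group, members with at least 1000 CPM in a group, Pip, Amy1, Prp2, the parotid-marked genes, members called in an interaction with at least 10 CPM, and up to 4 called genes with the smallest p from each list of lipocalin-fold genes, other secreted proteins, secretory machinery, transcription factors and steroid, prolactin and growth hormone signalling. Abpg, Mup3, Lcn3, Scgb2b1-ps, Smr2 and Bpifb1 fall outside that rule and are named because a count of 5 or fewer needed them, and Mup6, Mup13, Esp38 and Abpa because they were chosen after their values were seen. The members and lists were chosen with earlier results of these data known.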

Additional observations from a re-analysis of the deposited data

Results flagged for a closer look

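In 4 members the strain difference was called as changing with age by a test of that change itself, the interaction in edgeR's quasi-likelihood fit with Benjamini-Hochberg adjustment. From 3 to 8 weeks the log2 difference between NOR and BALB/c changed by -1.44 in Esp24 (edgeR, SE 0.365, adjusted p 0.0332), by -3.96 in Mup5 (SE 0.399, adjusted p 7.60e-06) and by -4.98 in Prol1 (SE 1.08, adjusted p 0.0129). From 8 to 16 weeks it changed by -1.09 in Esp3 (edgeR, SE 0.287, adjusted p 0.0273). In NOR at 3 weeks Prol1 was at 0.143 CPM in replicate 1 and at 3.04 and 4.39 CPM in replicates 2 and 3. Those were the libraries highest in parotid-marked genes, and carry-over and strain cannot be told apart in Prol1 at that age. With each library left out in turn the call was lost in 0 of 12 fits for Mup5, 2 of 12 for Prol1, 9 of 12 for Esp24 and 7 of 12 for Esp3, and glmTreat against a log2 fold change of 1 kept Mup5 alone. The cause of these changes was not tested.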

How the results depend on the processing

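No value called for a member or a named gene changed its direction under any alternative, and of 75 such values 75 kept their side of the threshold with DESeq2's size factors in edgeR, with TMM factors computed without the members and without the filter. With DESeq2 2 were no longer past it and 1 had no adjusted p, with only the groups compared 4 and 2 were not tested, with the parotid covariate 4, and with glmTreat against a log2 fold change of 1 40. With a mean of at least 1 CPM 7 were not tested and 68 kept their call. With each library left out in turn 58 of all such values fell below the threshold and 416 did not. The number of members called went from 6 to 3 at 3 weeks and from 6 to 10 at 8 weeks, adding Dcpp1, Dcpp3, Bpifa2 and Smr3a, with only the groups compared, and from 2 to 1 for 16 against 8 weeks in NOR. With the parotid covariate it was 5, 7 and 10 at 3, 8 and 16 weeks, the last with Dcpp1, Dcpp2 and Dcpp3 added. Without the filter it went from 6 to 10 at 8 weeks, adding Dcpp1, Dcpp3, Lcn14 and Bpifa6, and from 1 to 2 for 16 against 8 weeks in BALB/c, and DESeq2 or a mean of at least 1 CPM took that 1 to 0, as neither tested Smr2. Without a fold-change cutoff it went from 11 to 17 for 8 against 3 weeks in BALB/c and from 2 to 6 for 16 against 8 weeks in NOR. With glmTreat, a stricter test by construction, it was 3, 2 and 2 at 3, 8 and 16 weeks in place of 6, 6 and 7, 6 and 4 for 8 against 3 weeks in BALB/c and NOR in place of 11 and 9, 0 and 0 for 16 against 8 weeks in place of 1 and 2, and 1 and 0 for the interactions in place of 3 and 1. Leaving out 1 library, the remaining 2 taken to vary like the other groups, gave 4 to 12 members at 3 weeks, 4 to 7 at 8 weeks and 5 to 7 at 16 weeks. It gave 10 to 11 for 8 against 3 weeks in BALB/c and 8 to 15 in NOR, 0 to 2 for 16 against 8 weeks in BALB/c and 1 to 3 in NOR, and 1 to 5 and 0 to 1 for the interactions. Except for glmTreat, the cause was not tested.

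The labels reuse the replicate numbers across groups although the animals differ, so the pairing was checked. Over 45 pairs of libraries with the same number the correlation of the residuals was -0.474 to 0.512 with a median of 0.0997, against a median of -0.052 over other pairs, and 8 of 18 libraries correlated best with one of their own number. With the replicate number as a block all 75 values kept their call, and the members called were 8 at 3 weeks, 8 at 8 weeks and 3 for 16 against 8 weeks in NOR in place of 6, 6 and 2. Depth limits what can be said of the 12 members with at most 3 counts in every library.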

Other observations

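Abpa, an androgen-binding protein subunit that the naming rule leaves out, was at 513, 379 and 611 CPM in BALB/c and 244, 341 and 544 CPM in NOR at 3 weeks. At 8 weeks it was at 0.472, 0.489 and 0.508 CPM in BALB/c and 0.293, 0.744 and 0.353 CPM in NOR. Like Abpb, it was far lower at the later age in every library, with log2 fold changes of -9.97 (edgeR, Benjamini-Hochberg adjusted p 8.70e-12) in BALB/c and -9.65 (edgeR, Benjamini-Hochberg adjusted p 2.69e-11) in NOR. It was not called between the strains at any age.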
